A study of Homo sapiens with 12 samples.

Results

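Integrins and laminins are the receptor and ligand sides of the attachment of a cell to its basement membrane. The genes described here are all rows of both deposited tables named as an integrin α chain, an integrin β chain or a laminin α, β or γ chain. They were chosen by name, with earlier results of these data known. They number 38 of 29972 gene rows, namely 18 integrin α, 8 integrin β, 5 laminin α, 4 laminin β and 3 laminin γ genes. The mRNA sequenced came from the cells of MDA-MB-436 and of BoM-1833, established human triple-negative breast cancer cell lines, the latter selected for growth in bone. These lines are not treated here as a parent line and its derivative. The cells were reverse transfected for 72 h with 5 nM of either siNT, a non-targeting control pool of small interfering RNAs, or siPHF19, a mixture in equal parts of 2 siRNAs against PHF19. The 4 groups of 3 libraries are thus MDA-MB-436 with siNT, MDA-MB-436 with siPHF19, BoM-1833 with siNT and BoM-1833 with siPHF19, and the maker of the siNT pool was not that of the PHF19 siRNAs. PHF19 is an accessory subunit of Polycomb repressive complex PRC2, which methylates histone H3 at silenced genes. No rescue or second siRNA arm is among the samples, so loss of PHF19 and any other effect of this siRNA mixture cannot be told apart.

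An integrin is a pair of 1 α and 1 β chain that spans the plasma membrane, binds matrix outside the cell and couples through talin and kindlin to actin inside it. A laminin is a trimer of 1 α, 1 β and 1 γ chain that is assembled before secretion and polymerises into the basement membrane. Epithelial cells of the breast contact laminin mainly through the integrins α3β1, α6β1 and α6β4, of which α6β4 anchors hemidesmosomes. Laminin-332, which holds the chains encoded by LAMA3 and LAMB3, is the laminin of that anchorage and also a substrate for migration.

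Values per library are normalized counts, the read count of a gene divided by the size factor of its library. A gene was called higher or lower at an adjusted p under 0.05 in the authors' deposited table (DESeq2 Wald test of siPHF19 against siNT within a line), and genes without an adjusted p there were not tested. Nothing in the labels says whether the 3 libraries of a group came from separate cultures, so the p-values measure the spread between these libraries, which may be technical. Depth was 15.2 to 24.0 M reads assigned to genes per MDA-MB-436 library and 13.7 to 21.3 M per BoM-1833 library. PHF19 itself fell to 9.75% of its control mean in MDA-MB-436, from 2942, 3354 and 3763 with siNT to 340.1, 326 and 315 with siPHF19. In BoM-1833 it fell to 10.9%, from 1711, 1684 and 1669 to 181, 201 and 173. Both lines are labelled triple-negative, and ESR1 and PGR stayed at 3.97 normalized counts or fewer in every library, and the lowest VIM value was 18097. ERBB2, which a triple-negative tumour does not amplify, lay between 932 and 1179 in MDA-MB-436. Replicates of siNT were farther apart than those of siPHF19 in both lines, and siNT replicate 1 was the farthest from the other two (chi-square per degree of freedom over genes of 12.5 and 22.5 in MDA-MB-436 and of 25.5 and 15.9 in BoM-1833, against 2.32 to 3.56 between siPHF19 replicates). Because each library is a bulk culture, fewer cells of a type and less RNA per cell cannot be told apart.

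In MDA-MB-436, 31 of the 38 genes were tested and 12 were called, 4 higher and 8 lower. The 4 that rose are ITGA1, ITGB4, LAMB2 and LAMC1. Those that fell include ITGA6, ITGB1, ITGB6, ITGB8, LAMA2, LAMB1 and LAMC3. The 12 are 38.7% of the tested members, beside 22.1% of all 14243 genes tested in this line (10.5% higher and 11.5% lower). The median log2 fold change of the tested members in the authors' deposited table was -0.21, beside -0.0022 over all tested genes. In BoM-1833, 25 of the 38 genes were tested and 8 were called, 3 higher (ITGA3, ITGB2 and ITGB3) and 5 lower, including ITGA6, LAMA3, LAMB1 and LAMB3. This is 32.0% of the tested members, beside 10.9% of all 12906 genes tested (5.21% higher and 5.72% lower), and the median log2 fold change in the authors' deposited table was -0.01, beside -0.0035 over all. No untested member had more than 38 reads in all 6 libraries of MDA-MB-436 or more than 51 in those of BoM-1833. Without siNT replicate 1, refitted DESeq2 called 13 members in the first line, beside 20.3% of all genes tested, and 8 in the other, beside 17.0%.

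Between the lines, 24 members were tested in both and 17 were called in at least 1. Of these, 3 were called in both, all lower, including ITGA6 and LAMB1, and no member was called in opposite directions. The share called in both was 5.97% over all 12286 genes that were tested in each. The groups did not overlap, every siPHF19 library lying on 1 side of every siNT library, for 19 tested members in MDA-MB-436, beside 42.2% of all tested genes, and for 10 in BoM-1833, beside 31.0%.

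**Figure D1:**
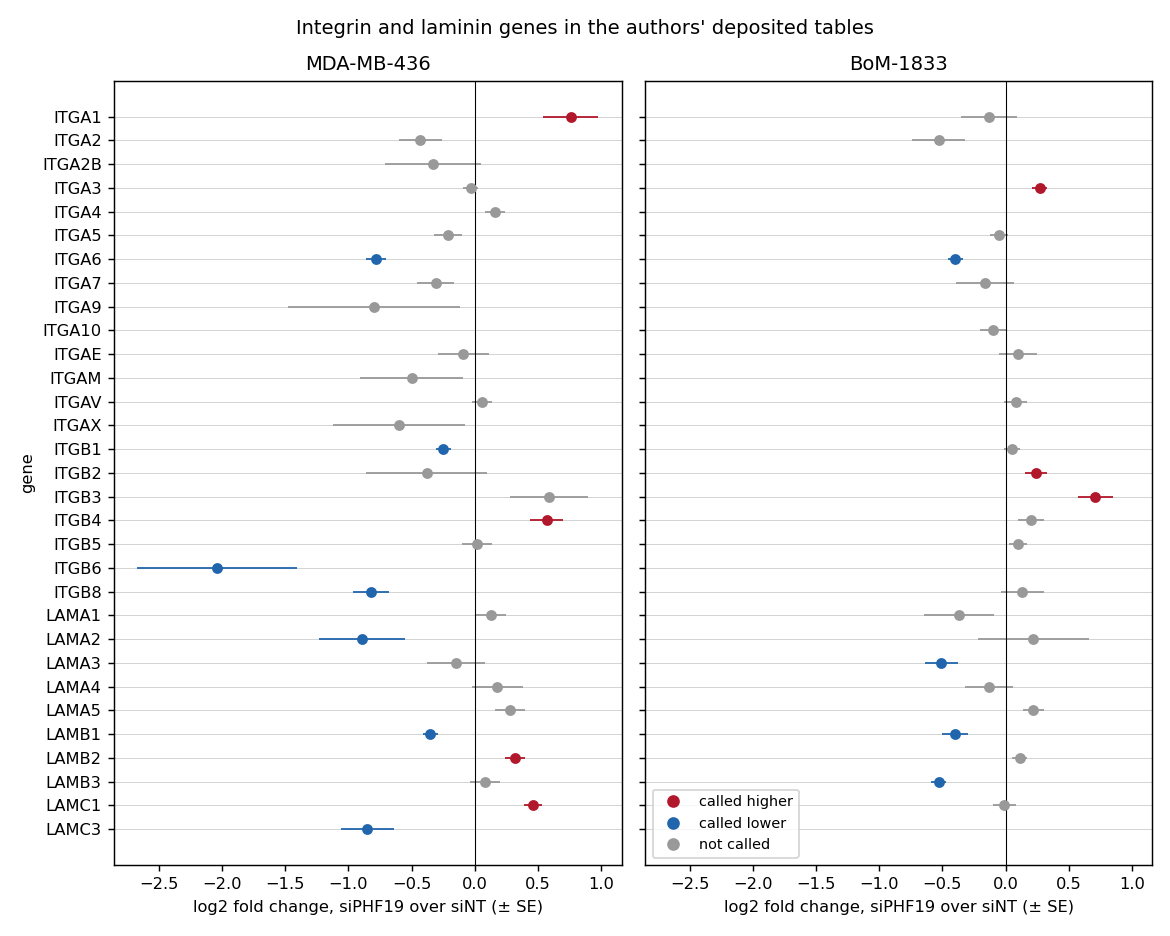
Log2 fold change of siPHF19 over siNT with its standard error for the integrin and laminin genes reported here and tested in at least 1 line, as in the authors' deposited tables, with MDA-MB-436 on the left and BoM-1833 on the right. Red points were called higher, blue points lower and grey points were not called; ITGA6 and LAMB1 are blue in both panels, and ITGB6 lies farthest from 0 at -2.04 in MDA-MB-436.

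The transcripts of ITGA6 and LAMB1, which fell in both lines, end in untranslated regions that share a short run of letters. The 6 bases AAACTG, searched on the RNA strand only, were chosen because earlier work on these data had shown them to be commoner in the 3′ untranslated regions of lowered genes, so their presence here is no independent observation. They are shown because each of these genes holds at least 1 match. Each line gives 30 bases from the 3′ untranslated region of the gene's GENCODE v29 transcript with the longest coding sequence, with AAACTG in capitals.
ITGA6 match 1: ttcacagtacccAAACTGctttttccaact
ITGA6 match 2: cagccaaatttaAAACTGttggaatggatt
ITGA6 match 3: tatggtggatccAAACTGatccagtataag
LAMB1 match: actacattttaaAAACTGacttaatgctct
The matches begin at base 35, 193 and 1108 of the ITGA6 region and at base 55 of the LAMB1 region. Among tested members in MDA-MB-436, 7 of the 8 that fell have a match, 1 of the 4 that rose and 5 of the 19 that were not called. Over all tested genes with an annotated region in that line, 48.7% of those that fell, 42.7% of those that rose and 40.0% of those not called have one. In BoM-1833, 3 of the 5 lowered members, 0 of the 3 raised ones and 7 of the 17 others have a match, beside 60.1%, 34.6% and 41.0% over all tested genes. The match does not go with the call in every member. LAMB3 and LAMA3, which fell in BoM-1833, have none, and ITGA2, which was not called in either line, has 7. Longer regions hold more matches by length alone. The median length was 1411 bases for the lowered, 1532 for the raised and 464 for the uncalled members of MDA-MB-436, and 418, 464 and 1032 bases in that order in BoM-1833. Per kb of region, these members held 0.978, 0.302 and 0.662 matches in MDA-MB-436, beside 0.656, 0.392 and 0.462 over all tested genes. In BoM-1833 they held 1.11, 0 and 0.641, beside 0.684, 0.384 and 0.467. A match is a description of the letters and not of a binding site.

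LAMC1, at 183023460 to 183145592 on the plus strand of chromosome 1 (GRCh38), encodes γ1, the chain of most laminins. It rose in MDA-MB-436, where its counts were 10124, 11019.8 and 11419.9 with siNT and 14870.4, 15029.9 and 14798 with siPHF19. The treated libraries differed from each other by far less than from any control, and a log2 fold change of 0.46 stands in the authors' deposited table (adjusted p 1.50e-10, SE 0.07). In BoM-1833 the 3 treated libraries (4854, 4628 and 4555) lay inside the range of the controls (3932, 4841 and 5398). There the authors' deposited table gives -0.01 (adjusted p 0.966, SE 0.09). The difference of both fold changes, MDA-MB-436 minus BoM-1833, was 0.47 with a 95% interval of 0.25 to 0.69 (z test on the deposited estimates, adjusted p 0.00136 over 12286 genes).

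The γ3 gene LAMC3 was measured in MDA-MB-436 only. It had 105, 138 and 137 counts with siNT and 67.6, 74.5 and 68.6 with siPHF19, so that treated libraries were all lower. The log2 fold change in the authors' deposited table was -0.85 (adjusted p 7.23e-04, SE 0.21). In BoM-1833 every library was at 0.

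LAMB3, the β3 chain of laminin-332, was the second most abundant member per length in BoM-1833 and fell there. Its counts were 13681, 12550 and 13445 with siNT and 8909, 9126 and 9354 with siPHF19. The treated mean was 69.0% of the control mean with groups far apart. In the authors' deposited table the log2 fold change was -0.53 (adjusted p 8.60e-19, SE 0.06). MDA-MB-436 held little LAMB3, at 365, 402 and 345 counts with siNT and 384, 412 and 378 with siPHF19. These groups overlapped, and the authors' deposited table gives 0.08 (adjusted p 0.705, SE 0.12). The lines differed by 0.61 (95% interval 0.36 to 0.87, z test, adjusted p 2.30e-04).

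LAMA3, the α3 chain of the same trimer, also fell in BoM-1833. Controls had 799, 1015 and 1209 counts and treated libraries 785, 625 and 709, so the highest treated library came close to the lowest control. The authors' deposited table gives -0.51 (adjusted p 0.00123, SE 0.13). The call rests on single libraries: refitted DESeq2 gave -0.36 (adjusted p 0.0538) without siNT replicate 3 and -0.43 (adjusted p 0.0514) without siPHF19 replicate 2. In MDA-MB-436 the counts were 80.8, 114 and 138 with siNT and 105, 89.5 and 107 with siPHF19, with a deposited log2 fold change of -0.15 (adjusted p 0.705 in the authors' deposited table). The groups overlapped there. The difference between lines, 0.36, had an interval of -0.15 to 0.87 and did not pass (adjusted p 0.536).

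The promoters of LAMA3 and LAMB3 are shown because both genes fell in BoM-1833 and both hold a match to TGANTCA, the motif of AP-1. AP-1, a dimer of Fos and Jun proteins, is a known activator of laminin-332 genes in epithelial cells. Of the 38 members, 26 had a promoter in the RefSeq table used (GRCh38.p14, 33 promoters in all). TGANTCA was searched on both strands from 250 bases before to 50 after each start site. It was found in 7.71% of all 35116 promoters of that length and in 3 of the members' 33, those of LAMA3, LAMB3 and ITGA5. The lines give the 250 bases before the start, with the AP-1 matches in capitals. That of LAMA3 is chr18:23872770-23873019 on the plus strand, inside the GENCODE gene, which begins at 23689443. That of LAMB3 is chr1:209651375-209651624 on the minus strand, 1 of the 3 LAMB3 promoters in the table, and the others hold no AP-1 match. Counts per gene do not tell which promoter was used.
LAMA3: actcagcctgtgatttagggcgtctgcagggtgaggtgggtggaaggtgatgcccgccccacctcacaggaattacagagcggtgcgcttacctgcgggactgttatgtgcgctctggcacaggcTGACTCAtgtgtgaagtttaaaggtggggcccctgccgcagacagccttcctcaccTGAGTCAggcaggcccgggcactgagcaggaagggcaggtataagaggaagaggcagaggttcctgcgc
LAMB3: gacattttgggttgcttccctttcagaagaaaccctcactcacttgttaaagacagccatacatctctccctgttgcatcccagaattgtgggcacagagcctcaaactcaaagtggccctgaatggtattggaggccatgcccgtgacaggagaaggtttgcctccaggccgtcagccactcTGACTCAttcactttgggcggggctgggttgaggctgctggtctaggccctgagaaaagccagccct
The LAMA3 matches begin 125 and 69 bases before the start, and the LAMB3 match 67 bases before it. Each stretch also holds 1 match to GGGCGG, the GC box read by SP1, likewise searched on both strands. This match begins 197 bases before the start in LAMA3, as the reverse complement CCGCCC, and 52 in LAMB3. It does not overlap an AP-1 match in either. GGGCGG was found in 45.0% of all 35116 promoters and in 19 of the members' 33. ITGA5, with the remaining AP-1 match, was not called in either line. Binding was not measured in these samples.

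LAMB1, the β1 chain of many widespread laminins, fell in both lines by a like amount. In MDA-MB-436 it had 4911, 4695 and 4766 counts with siNT and 3740.5, 3868 and 3625 with siPHF19. In BoM-1833 it had 776, 728 and 864 against 609.9, 587 and 596. Neither pair of groups overlapped. The authors' deposited table gives -0.35 (adjusted p 3.80e-07, SE 0.06) for MDA-MB-436 and -0.40 (adjusted p 8.26e-04, SE 0.10) for BoM-1833. The difference was 0.05 with an interval of -0.18 to 0.27. LAMB1 lies on chromosome 7 at 107923799 to 108003255 and shares exonic bases with DLD on the opposite strand, and whether counting used strand is not given in the sources used here.

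LAMB2, the β2 chain that takes the place of β1 in laminins of mature basement membranes, rose in MDA-MB-436. Its counts were 2016, 2289 and 2046 with siNT and 2540.2, 2668 and 2721 with siPHF19, without overlap. The log2 fold change was 0.32 (adjusted p 5.20e-04, SE 0.08) in the authors' deposited table. In BoM-1833 the libraries overlapped, at 6424, 6642 and 7084 against 7556, 7141 and 6985. The value of 0.11 (adjusted p 0.315, SE 0.06) in the authors' deposited table was not called, and the difference between lines of 0.21 was not either (adjusted p 0.250).

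**Figure D2:**
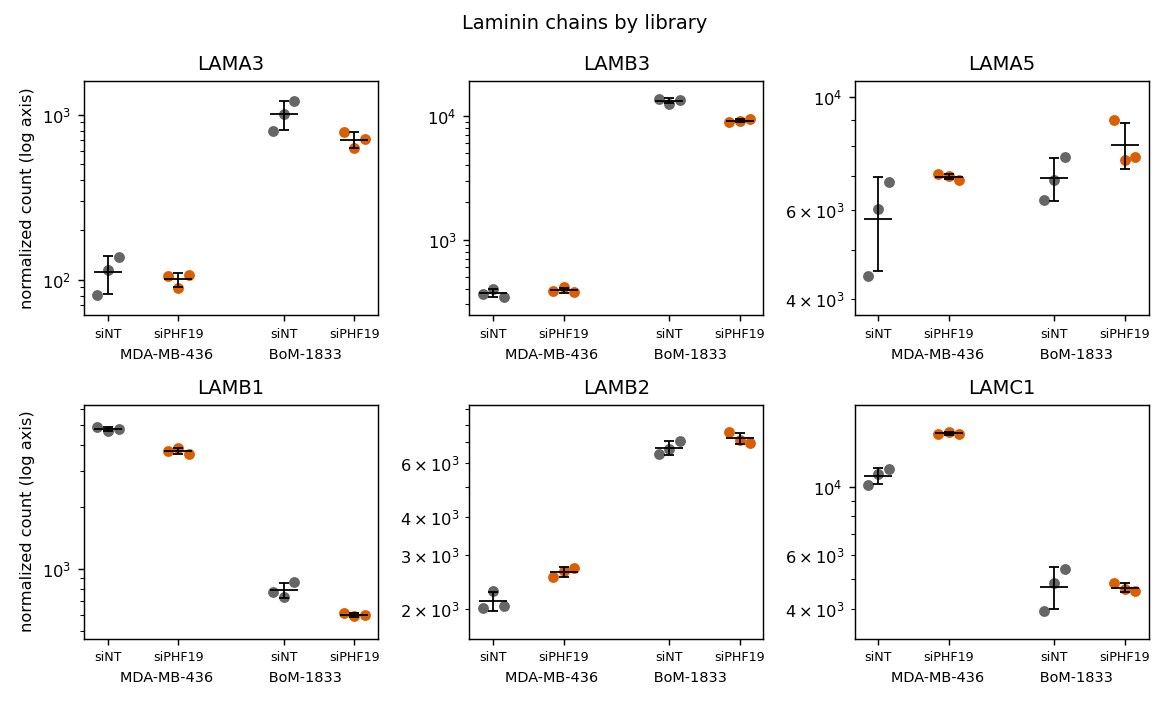
Normalized counts of 6 laminin chain genes in every library on a log axis, with siNT in grey and siPHF19 in orange for each line; the bar is the mean and the whiskers are 1 SD (n = 3). LAMB1 is separated in both lines, LAMC1, LAMB2 and LAMA5 (the last not called) only in MDA-MB-436 and LAMB3 and LAMA3 only in BoM-1833.

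Among the laminin α chains, LAMA5, whose chain is common in adult basement membranes, was the leading one and was not called. Its counts were 4444 to 6807 with siNT and 6879.7 to 7051 with siPHF19 in MDA-MB-436 (0.28, adjusted p 0.0932 in the authors' deposited table). They were 6279.8 to 7622 and 7527 to 9031 in BoM-1833 (0.22, adjusted p 0.0573 in the authors' deposited table). It was called without siNT replicate 3 in either line, and by edgeR without a filter in BoM-1833. LAMA5 shares exonic bases with ADRM1 on the opposite strand. LAMA2, the α2 chain of muscle and nerve laminins, was rare in both lines. It fell in MDA-MB-436 from 51.3, 40.3 and 44 to 20.7, 27.3 and 24.3 (log2 fold change -0.89, adjusted p 0.0381, SE 0.34 in the authors' deposited table). That call was lost in each of the 6 refits that left out 1 library, with adjusted p up to 0.213. LAMA1 and LAMA4 were not called in either line, although LAMA1 was at 941 to 1331 counts in MDA-MB-436 and at 45.7 to 70.1 in BoM-1833. LAMB4 had no more than 2.33 counts in any library.

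The mRNA makeup of the laminin α and β classes was expressed as shares of their summed RPKM (reads per kilobase of exon per M reads), which allows levels of different genes to be set side by side. Shares of mRNA are not shares of protein trimers. In MDA-MB-436, LAMB1 made up 60.3% ± 2.13 (SD, n = 3) of laminin β mRNA with siNT and 49.5% ± 1.12 with siPHF19, while LAMB2 made up 31.6% ± 1.71 and 41.5% ± 1.31. In BoM-1833 LAMB3 led, with 71.6% to 73.9% in control and 61.8% to 64.7% in treated libraries, and LAMB1 had only 2.49% ± 0.143 and 2.39% ± 0.0412. In siNT libraries, LAMB1 thus had the largest share of β mRNA in the first line and LAMB3 in the second. LAMA5 held 81.5% ± 1.36 and 83.7% ± 0.242 of laminin α mRNA in MDA-MB-436, and 84.4% to 86.4% against 89.5% to 90.3% in BoM-1833. The LAMA3 share in BoM-1833 was 10.7% to 13.0% with siNT and 7.30% to 8.08% with siPHF19. With 3 libraries against 3, a two-sided exact permutation test of a share cannot go below p = 0.1, so these shares are given without a test.

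**Figure D3:**
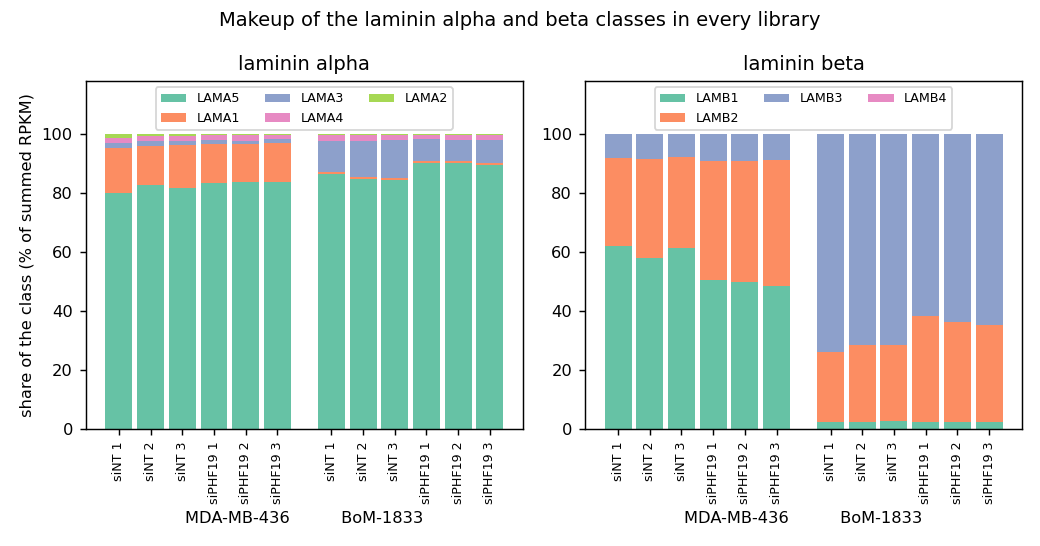
Share of each gene in the summed RPKM of the laminin α and β classes, as stacked bars for every library of both lines. The LAMB1 part of the β class is 57.9% to 61.9% in MDA-MB-436 siNT libraries and 48.3% to 50.4% in siPHF19 libraries, and the LAMB3 part in BoM-1833 is 71.6% to 73.9% against 61.8% to 64.7%.

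ITGA6, the α6 chain that pairs with β1 or β4 to bind laminins, is the integrin that fell in both lines. In MDA-MB-436 its counts were 2720.1, 2324 and 2470.4 with siNT and 1514, 1419.7 and 1429 with siPHF19, or 58.1% of the control mean. The log2 fold change in the authors' deposited table was -0.78 (adjusted p 6.02e-19, SE 0.08). In BoM-1833 they were 9083, 9729 and 10584 against 7563, 7434 and 7337, or 76.0%. The groups were separate in both lines. For BoM-1833 the authors' deposited table gives -0.40 (adjusted p 4.07e-08, SE 0.06). The fall was larger in MDA-MB-436, with a difference of -0.39 (95% interval -0.59 to -0.18, z test, adjusted p 0.00847). This difference was not called without siPHF19 replicate 2 or 3 of MDA-MB-436, at -0.37 (adjusted p 0.0898) and -0.38 (adjusted p 0.0733). The gene lies on chromosome 2 at 172427354 to 172506282, plus strand, and overlaps the antisense gene ITGA6-AS1.

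ITGB4, the β4 chain whose only known partner is α6, did not follow it. In MDA-MB-436 it rose from 379.8, 477 and 435 counts to 603, 739 and 576. Every treated library exceeded every control, and the authors' deposited table gives 0.57 (adjusted p 2.15e-04, SE 0.13). In BoM-1833 the counts of 1609, 1670.1 and 2070.1 with siNT and 2281, 2070 and 1807 with siPHF19 overlapped (0.20, adjusted p 0.206, SE 0.10 in the authors' deposited table). Without siNT replicate 3, refitted DESeq2 gave 0.32 with an adjusted p of 0.0131. For every 100 RPKM of ITGA6 there were 16.8 ± 3.18 RPKM of ITGB4 in control and 42.6 ± 6.70 in treated MDA-MB-436 cells. In BoM-1833 the same ratio was 17.5 ± 1.21 and 26.6 ± 2.68, and in both lines every treated library lay above every control.

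ITGA3, the α3 chain of the other main laminin receptor, rose in BoM-1833. Counts there were 22731, 23363 and 25468 with siNT and 28963, 28881 and 28392 with siPHF19. The groups did not overlap, and the authors' deposited table gives 0.27 (adjusted p 6.87e-05, SE 0.06). MDA-MB-436 had 8597, 9240.2 and 9291 against 8759.8, 8966 and 8837, with treated libraries inside the control range. There the authors' deposited table gives -0.03 (adjusted p 0.779, SE 0.06). The difference of -0.30 passed (interval -0.46 to -0.14, adjusted p 0.0109), but in 6 of the 12 refits that left out 1 library it did not. For every 100 RPKM of ITGA3, ITGA6 had 41.7 ± 5.11 RPKM in control and 24.7 ± 1.14 in treated MDA-MB-436 cells, and 61.6 ± 1.42 and 38.9 ± 0.287 in BoM-1833.

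ITGB1, the β1 chain common to most matrix receptors, was the most abundant member per length in both lines. In MDA-MB-436 it fell from 19348, 18001 and 17900.4 counts to 15571, 15863 and 14936. The treated mean was 83.9% of the control mean, without overlap (-0.25, adjusted p 5.54e-04, SE 0.06 in the authors' deposited table). In BoM-1833 counts were 29562, 30696 and 32491 with siNT and 32651, 32493 and 30927 with siPHF19, which overlapped (0.05, adjusted p 0.688 in the authors' deposited table). The difference between lines was -0.30 (interval -0.47 to -0.14, adjusted p 0.00993), and 5 of the 12 refits without 1 library did not call it.

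**Figure D4:**
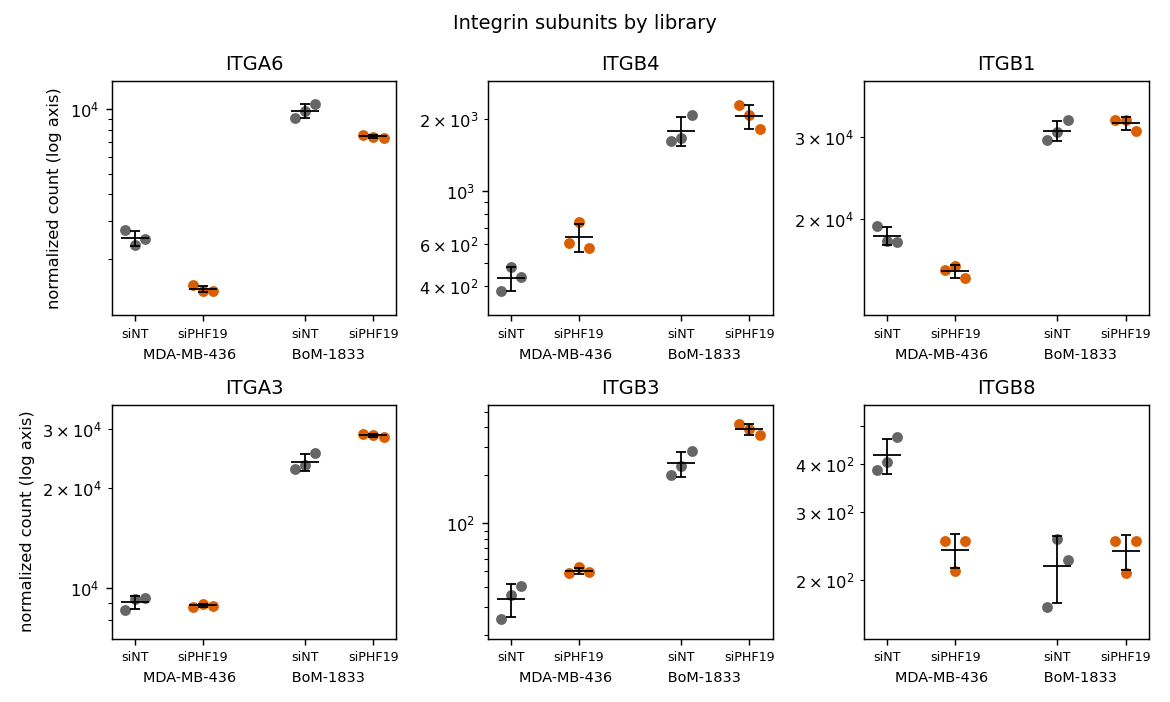
Normalized counts of 6 integrin genes in every library on a log axis, with siNT in grey and siPHF19 in orange; the bar is the mean and the whiskers are 1 SD (n = 3). ITGA6 is lower with siPHF19 in both lines, ITGB4, ITGB1 and ITGB8 are separated in MDA-MB-436 only, ITGA3 in BoM-1833 only, and ITGB3 in both although it was called in BoM-1833 alone.

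Of the β chains other than β1 that pair with αv and read the RGD sequence in fibronectin, vitronectin or latent TGF-β, 3 were called in a line. ITGB8, whose product binds latent TGF-β, fell in MDA-MB-436 from 386, 405 and 469.6 counts to 253, 211 and 253. The authors' deposited table gives -0.82 (adjusted p 6.54e-08, SE 0.14). In BoM-1833 its groups overlapped, at 171, 256 and 225 against 252, 209 and 252 (0.13, adjusted p 0.740 in the authors' deposited table). The responses of the lines differed for 6 of the 24 members compared, beside 4.88% of 12286 genes, and ITGB8 had the largest of these 6 differences, at -0.95 (interval -1.37 to -0.53, adjusted p 6.77e-04). It was called in each of the 12 refits that left out 1 library, as were the differences of LAMB3 and LAMC1.

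ITGB6, the epithelial partner of αv, was near the lower limit of testing. MDA-MB-436 had 17.5, 27.1 and 20.8 counts with siNT and 3.27, 9.94 and 2.11 with siPHF19. The log2 fold change of -2.04 (adjusted p 0.00884, SE 0.63) in the authors' deposited table rests on 85 reads in all 6 libraries. Without siPHF19 replicate 1 or replicate 3 the adjusted p was 0.0760 or 0.0826. The adjusted p was absent without siNT replicate 2, and in BoM-1833, with 51 reads in all 6 libraries, ITGB6 was not tested. ITGB6 shares exonic bases with AC092153.1 on the same strand.

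ITGB3, the β3 chain of the vitronectin receptor, which osteoclasts and bone-seeking tumour cells carry, rose in BoM-1833 from 201, 228 and 284 counts to 418, 390.4 and 356. The treated mean was 1.63 times the control mean without overlap. The authors' deposited table gives 0.71 (adjusted p 2.33e-05, SE 0.14). ITGB3 shares exonic bases with AC068234.1 on the same strand, so reads of either may have been assigned to the other. In MDA-MB-436 the counts were low, 25.1, 35.7 and 40.4 against 49.1, 53.0 and 49.6, and every treated library was the higher. The value of 0.59 (SE 0.31) in the authors' deposited table was not called there (adjusted p 0.167), and the difference between lines of -0.12 had a wide interval, -0.79 to 0.54. ITGAV itself, the α chain that all of these share, was not called: 3659.9 to 4389 against 4077 to 4444 counts in MDA-MB-436 and 2072 to 2793 against 2640.4 to 2660 in BoM-1833. ITGB5 and the fibronectin receptor chain ITGA5 were not called either, with log2 fold changes between -0.21 and 0.10 in the authors' deposited table.

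Collagen is bound by β1 with α1, α2, α10 or α11. ITGA1 rose in MDA-MB-436, from 62.2, 82.9 and 62.4 counts to 117, 126 and 112. The groups were separate, and the authors' deposited table gives 0.76 (adjusted p 0.00373, SE 0.22). Without siPHF19 replicate 2 the adjusted p was 0.0781, and in DESeq2 with a replicate block it was 0.0554. PELO shares exonic bases with ITGA1 on the same strand, so reads of these genes may have been assigned to either. In BoM-1833 ITGA1 had 897, 1061 and 1456 counts against 1191, 992 and 935, overlapping (-0.13, adjusted p 0.831 in the authors' deposited table). The difference of 0.89 between lines did not pass (interval 0.28 to 1.5, adjusted p 0.0736). It was called in 3 alternatives, without siNT replicate 1 of BoM-1833 and by the DESeq2 interaction term with and without a replicate block.

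ITGA2, the α2 chain, is the most abundant per length of these α chains in both lines and missed the call in each. Its counts were 448 to 715 with siNT and 375 to 500.3 with siPHF19 in MDA-MB-436 (-0.43, adjusted p 0.0583, SE 0.17 in the authors' deposited table). In BoM-1833 they were 8852 to 13804 and 7129.9 to 9123 (-0.53, adjusted p 0.0881, SE 0.21 in the authors' deposited table). Control libraries spread widely and overlapped the treated ones in both lines. Without siNT replicate 1 it was called lower in both lines, as it was by edgeR without a filter. ITGA10 differed between lines in level, with 1795 to 2477 counts in BoM-1833 and 2.48 to 6.55 in MDA-MB-436, and it was not called in the former or tested in the latter. ITGA11 had 13.5 counts at most.

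The leukocyte integrins pair β2 with αL, αM, αX or αD. ITGB2 was at 11.6 to 25.7 counts in MDA-MB-436 and higher in BoM-1833, where it had 696, 710.1 and 747 with siNT and 856, 842 and 851 with siPHF19. The authors' deposited table calls it higher in BoM-1833, at 0.24 (adjusted p 0.0426, SE 0.09). In each of the 6 refits that left out 1 BoM-1833 library it was not called, with adjusted p from 0.0680 to 0.202. Its α partners ITGAL, ITGAM, ITGAX and ITGAD had at most 3.60 counts in any BoM-1833 library. Of 12 leukocyte markers, 6 were tested in BoM-1833 and 0 were called, with a summed level of 3419 to 3674 counts in siNT and 3327 to 3458 in siPHF19 libraries, most of it CD68. CD3E was at 0 and PTPRC, the common leukocyte antigen, lay between 14.9 and 21.2. ITGB2 overlaps the antisense gene ITGB2-AS1. In MDA-MB-436 ITGAM and ITGAX were detected at 7.39 to 36.7 counts and not called, and ITGAL and ITGAD were at 1.22 or less. The leukocyte markers CD68 and CD14 fell there by 0.36 and 0.37 in the authors' deposited table, CD3E was at 0 and PTPRC at 1.09 or less, and their part in these values was not tested. ITGA4, the α4 chain of the fibronectin and VCAM-1 receptor, had 1965 to 2514 counts in MDA-MB-436 (0.16, adjusted p 0.153 in the authors' deposited table) and a single read in all 6 BoM-1833 libraries. ITGA2B, ITGA7, ITGA9 and ITGAE were not called where tested. ITGA8 and ITGB7 were not tested in either line, with 3.54 counts at most.

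Per length, ITGB1 led in control cells of both lines, at 168, 161 and 160.3 RPKM in MDA-MB-436 and 291, 309 and 321 in BoM-1833. In MDA-MB-436 LAMC1 followed with 62.9, 70.4 and 73.1 and ITGA3 with 45.8, 50.7 and 51.0, so that these 3 did not overlap each other. In BoM-1833 LAMB3 followed ITGB1 with 173, 162 and 170.4 RPKM, and then came ITGA3 with 137, 144 and 154. ITGA6 and ITGA2, the fourth and the fifth there, overlapped at 82.4 to 96.3 and 66.3 to 104 RPKM. With the longest transcript as gene length in place of the union of exons, ITGA3 held the second place in both lines. In MDA-MB-436, LAMB3 was at 3.96 to 4.61 and ITGA2 at 2.96 to 4.87 RPKM, and LAMB1 was at 31.0 to 31.5 in MDA-MB-436 against 5.40 to 6.31 in BoM-1833. The tables of both lines were normalized separately by the authors, so these levels across lines carry no test.

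**Figure D5:**
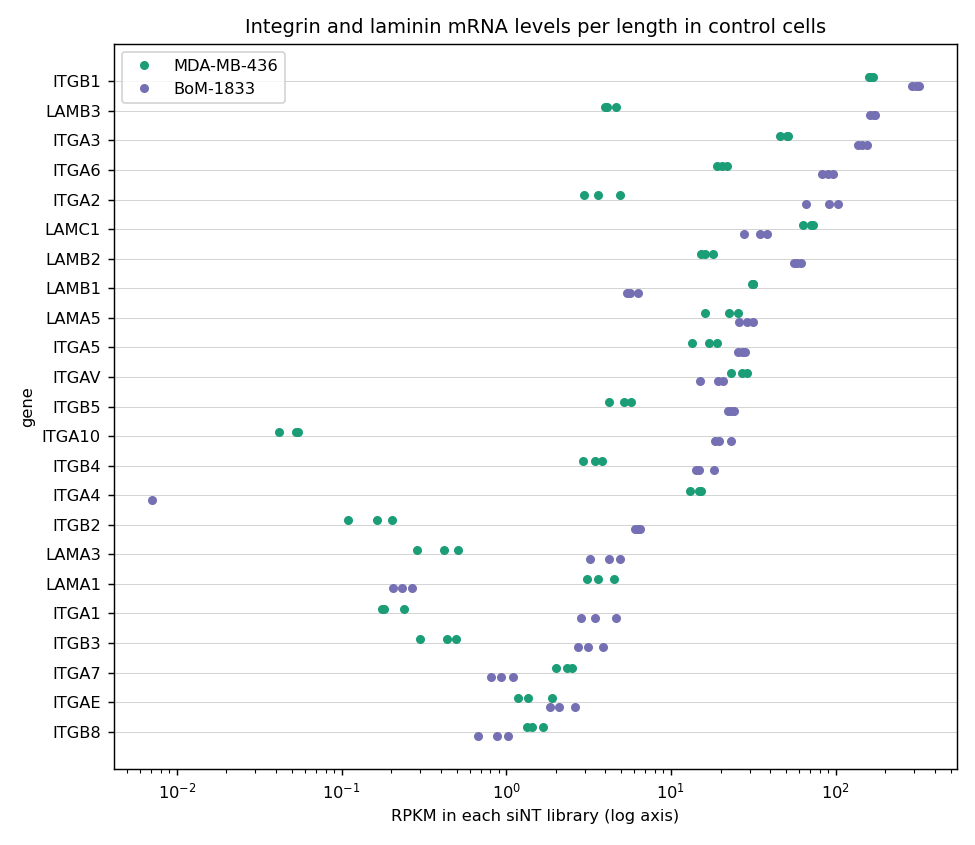
Level per length (RPKM, log axis) in each siNT library for the members reported here with a mean of at least 1 RPKM in a line, ordered by their higher line mean, with MDA-MB-436 in green and BoM-1833 in purple. ITGB1 is the highest in both lines; libraries with no read of a gene are not drawn, which leaves 1 point for ITGA4 in BoM-1833.

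Genes that work with these receptors and ligands were taken from lists chosen with earlier results of these data known. Their counts stand beside 10.5% higher and 11.5% lower over all genes tested in MDA-MB-436, and 5.21% and 5.72% over those of BoM-1833. Of the integrin adhesion complex (talins, kindlins, kinases and adaptors), 8 of 41 tested genes rose and 7 fell in MDA-MB-436, and 2 of 39 rose and 5 fell in BoM-1833. FERMT2, the kindlin that activates integrins together with talin, fell in MDA-MB-436 and BoM-1833, with -0.46 (adjusted p 4.00e-09) and -0.62 (adjusted p 2.20e-17) in the authors' deposited table, in that order of lines. PTK2B, a kinase related to FAK, rose by 0.84 (SE 0.14) and LIMS2, a PINCH adaptor, by 1.77 (SE 0.33) in MDA-MB-436, per the authors' deposited table. In BoM-1833 LPXN, a paxillin relative, fell by 0.78 and NEDD9, a p130Cas relative, rose by 0.70 in the authors' deposited table.

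Of integrin ligands other than laminins, 9 of 21 tested genes rose and 4 fell in MDA-MB-436, and 6 of 20 rose and 4 fell in BoM-1833. TNC, or tenascin-C, fell by 1.32 in the authors' deposited table (MDA-MB-436, adjusted p 1.42e-33, SE 0.10), from 6448 ± 894 to 2587 ± 196 counts (SD, n = 3). TGFB2, a transforming growth factor β, rose in both lines, by 0.68 and 0.59 in the authors' deposited table. CYR61 rose by 0.49 in MDA-MB-436, per the authors' deposited table. CTGF, of the same family, rose in MDA-MB-436 (0.51, adjusted p 2.72e-05) and fell in BoM-1833 (-0.52, adjusted p 1.85e-12), per the authors' deposited table. Per the authors' deposited table MFGE8 rose by 0.46 in BoM-1833.

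Of the basement membrane and laminin partners, 6 of 22 rose and 3 fell in MDA-MB-436, and 5 of 17 rose and 2 fell in BoM-1833. BCAM, a receptor for the laminin α5 chain, rose in both, by 0.43 (SE 0.07) and 0.59 (SE 0.10) in the authors' deposited table. In MDA-MB-436 SPARC rose by 1.54 and the collagen IV chain COL4A6 fell by 0.92, and in BoM-1833 agrin (AGRN) fell by 0.24 and TINAGL1 rose by 0.32, all in the authors' deposited table. The hemidesmosome list had 0 of 3 tested genes called in MDA-MB-436 and 1 of 4 in BoM-1833. That gene is COL17A1, the collagen of the hemidesmosome, which fell by 0.90 (adjusted p 1.58e-05, SE 0.18) in the authors' deposited table.

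Tetraspanins, which hold laminin receptors in membrane domains, had 3 of 7 genes higher and 1 lower in MDA-MB-436, and 2 of 9 higher and 1 lower in BoM-1833. CD82, a partner of α6 and α3 integrins, was the lowered one in both lines, at -1.02 (SE 0.17) and -0.58 (SE 0.08) in the authors' deposited table. CD81 and CD9 rose in MDA-MB-436, by 0.31 and 0.21, and TSPAN15 and CD63 in BoM-1833, by 0.36 and 0.17, in the authors' deposited table. Of the genes of integrin trafficking, 3 of 15 rose and 4 fell in MDA-MB-436, and 1 of 14 rose and 2 fell in BoM-1833. ARF6, the GTPase that returns β1 integrins to the surface, fell in both lines, by 0.78 and 0.28 in the authors' deposited table. RASA1, a Ras GTPase-activating protein, rose by 0.55 and the small GTPase RAB21 fell by 0.37 in MDA-MB-436, per the authors' deposited table. RAB11FIP1, a Rab11 effector, rose by 0.32 and the clathrin heavy chain CLTC fell by 0.16 in BoM-1833, per the authors' deposited table.

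Markers of the lines and of other cell types also moved. Among the 9 mesenchymal breast line markers, the authors' deposited table calls CD44 lower in MDA-MB-436, at -0.29 with an adjusted p of 2.66e-05. For BoM-1833 the authors' deposited table calls VIM lower at -0.21 (adjusted p 0.00213) and ZEB1 at -0.30 (adjusted p 0.0145). Of 9 fibroblast and endothelial markers, 3 were tested in each line. KDR, an endothelial growth factor receptor, was called lower in BoM-1833, from 135, 173 and 166 counts to 95.4, 94.4 and 90.1 (-0.76, adjusted p 0.00186 in the authors' deposited table), and 0 were called in MDA-MB-436. The summed level of that list was 584 to 798 counts with siNT and 625 to 746 with siPHF19 in BoM-1833, and its part in the members' values was not tested.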

How the data were processed

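Stranded mRNA libraries of 12 samples were made by the authors and, per the submitters' processing notes, hg38, STAR, RSEM 1.3.1 and DESeq2 1.46.0 were used. Which annotation was counted, and whether by strand, is not given in the sources used here. The authors deposited 1 table per line, with a signal for each library: reads per gene over that library's size factor. The deposited log2 fold changes, their standard errors, the Wald score and the p-values are the authors' own, per the file headers.

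Members and gene lists were chosen with earlier results of these data known. Named genes are those called in a line, those that differ between lines, the 3 highest per length in each line, PHF19, and from each related list the 3 called genes with the largest absolute Wald statistic in a line. ITGA2, ITGA5, ITGA10, ITGAV, LAMA5 and other uncalled members are given by range. The result of 1 member is not reported here, though counts of members include it.

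Whole reads were recovered from the size factor steps: 100% of values were whole within 0.01 of a read in each of 12 libraries. They may be rounded estimates of RSEM. They carry no molecular identifiers, so a count of reads is not a count of molecules. On these reads, DESeq2 1.42.0, edgeR 4.0.16 (quasi-likelihood) and limma 3.58.1 (pseudocount 1 or 0.5, mean of at least 10) gave the alternatives, with adjustment by Benjamini-Hochberg over all genes tested. The difference between lines was a two-sided z test on the deposited log2 fold changes and standard errors, adjusted over 12286 genes tested in both. On simulated reads with 200 genes changed by 1 on the log2 scale, DESeq2 found 98.5% with 15 false calls in MDA-MB-436 and 100% with 13 in BoM-1833. Only genes with a mean count of at least 100 were changed, so these shares do not cover smaller changes or lower counts. RPKM used the union of GENCODE v29 exons and the recovered reads. Promoters are from RefSeq (GRCh38.p14). Of the gene names in each deposited file, 28 had become spreadsheet dates and were kept in all totals. Per-sample columns of no sample of the series numbered 0.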

Additional observations from a re-analysis of the deposited data

Results flagged for a closer look

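The response to siPHF19 differed between the lines, by a test of the difference itself, for 6 of the 24 members tested in both, beside 4.88% of all 12286 genes compared (z test on the values of the authors' deposited tables, adjusted p under 0.05). The differences of log2 fold changes, MDA-MB-436 minus BoM-1833, were -0.95 for ITGB8, -0.39 for ITGA6, -0.30 for ITGA3, -0.30 for ITGB1, 0.61 for LAMB3 and 0.47 for LAMC1. ITGA6 fell in both lines and to a lower share of control in MDA-MB-436. ITGB8 and ITGB1 were called lower, and LAMC1 higher, in MDA-MB-436, while LAMB3 was called lower and ITGA3 higher in BoM-1833; none of these 5 was called in the other line. Both lines were normalized and tested separately by the authors.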

How the results depend on the processing

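Requiring an absolute log2 fold change of at least 1 left 1 called member in MDA-MB-436 (ITGB6) and 0 in BoM-1833. With limma, 5 members were called in BoM-1833 at either pseudocount, without ITGA3, ITGB2 and LAMA3. Leaving out 1 library at a time gave 10 to 15 called members in MDA-MB-436, 6 to 8 in BoM-1833 and 3 to 7 differences between lines, the lowest without siPHF19 replicate 2 or 3 of MDA-MB-436. Uncalled values changed sign in 6 of these fits: LAMA3 in MDA-MB-436 (-0.33 to 0.03), and in BoM-1833 ITGA1 (-0.27 to 0.09), ITGB8 (-0.02 to 0.27) and LAMC1 (-0.13 to 0.09). By the measure used, replicate numbers did not pair the samples: same-numbered libraries deviated from their group means with r between -0.165 and -0.074. Differently numbered ones reached 0.164 in BoM-1833. The labels do not say what a number shares, so whether a batch was shared cannot be told. A replicate block gave 9 called members in MDA-MB-436 (1610 of all genes in place of 3143), 7 in BoM-1833 (610 in place of 1411) and 5 differences. In MDA-MB-436 it lost ITGA1 and LAMA2 and left ITGB6 untested, and in BoM-1833 it lost ITGB2. The 5 differences hold 4 of the 6 from the z test, without ITGA3 and ITGB1, and add ITGA1. ITGA6 and LAMB1 were called lower in both lines by each tool and in each fit without 1 library. ITGA2 was called lower in both lines by edgeR without a filter on low counts and without siNT replicate 1, in BoM-1833 by edgeR with the filter, and in MDA-MB-436 without siPHF19 replicate 2. As an interaction term, DESeq2 called 8 differences between lines and edgeR 7, both with all 6 of the z test. Over all genes, leaving out 1 library gave 1767 to 3801 calls in MDA-MB-436 (3143 with all) and 746 to 2046 in BoM-1833 (1411 with all), and limma 750 and 756 in BoM-1833; the cause was not tested.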
